A study of Mus musculus with 15 samples.

Results

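The glutathione S-transferases of mouse liver were followed through 10 of the 18193 genes that have a probe set of their own on the array: Gsta2, Gsta3, Gsta4, Gstm1, Gstm2, Gstm3, Gstm4, Gstm6, Gstp1 and Gstt1. All probe sets annotated to these genes were taken, which gave 16 of the 45037 probe sets on the array that are not controls. A probe set is a group of short oligonucleotides that reads 1 transcript, and its value is an intensity that rises with the amount of RNA. Gstm1 had 4 probe sets, Gsta2, Gsta3 and Gstm3 had 2 each, and 6 genes had 1 each. One of the Gsta2 probe sets, 1421041_s_at, is annotated to 3 genes at once, Gsta1, Gsta2 and Gm3776, and is called the shared probe set here. Probe sets ending in _a_at, _s_at or _x_at can bind several transcripts, and in a family of such close copies a value of one may hold RNA of another.

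All groups were male C57BL/6J mice, 7 weeks old at the start and fed for 9 weeks. The HFCC mice ate a high-fat diet with 2% freeze-dried caffeinated coffee, the HFDC mice the same diet with 2% decaffeinated coffee, and the HFGC mice the same diet with 2% unroasted (green) coffee, which holds caffeine. The HF mice ate the high-fat diet alone, in which fat gave 60% of the energy. The ND mice ate a normal diet, in which it gave 10%. The coffee groups thus share the high-fat diet with the HF group. Each group had 3 livers on 1 array each, from mice that the study's methods say were picked at random out of larger groups.

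Glutathione S-transferases join the tripeptide glutathione to reactive compounds, which makes them soluble and ready for export out of the cell. The enzymes are dimers and fall into classes: alpha (Gsta genes), mu (Gstm genes), pi (Gstp1) and theta (Gstt1), each with its own preferred compounds. Liver is rich in them, and several are switched on by NRF2, the factor that answers oxidants and electrophiles, or by the receptors AhR, CAR and PXR, which answer foreign compounds.

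The 300 bases around the start of transcription are shown for 3 genes on which the results turn, as RefSeq gives them on build GRCm38.p6, from 250 bases before the start to 50 after it. Short motifs of 2 kinds were searched on both strands, and a match is marked in capitals. They are the core of the antioxidant response element, TGACNNNGC, which NRF2 binds, and the core of the xenobiotic response element, GCGTG, which AhR binds. Their letters do not overlap in any window shown.
Gsta3, chr1:21240335-21240634, + strand: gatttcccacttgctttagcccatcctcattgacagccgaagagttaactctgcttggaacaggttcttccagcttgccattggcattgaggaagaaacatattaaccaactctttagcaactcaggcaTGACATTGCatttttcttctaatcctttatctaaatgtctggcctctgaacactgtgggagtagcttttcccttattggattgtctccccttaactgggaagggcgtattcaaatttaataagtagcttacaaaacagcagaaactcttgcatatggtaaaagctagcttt
Gsta2, chr9:78347096-78347395, - strand: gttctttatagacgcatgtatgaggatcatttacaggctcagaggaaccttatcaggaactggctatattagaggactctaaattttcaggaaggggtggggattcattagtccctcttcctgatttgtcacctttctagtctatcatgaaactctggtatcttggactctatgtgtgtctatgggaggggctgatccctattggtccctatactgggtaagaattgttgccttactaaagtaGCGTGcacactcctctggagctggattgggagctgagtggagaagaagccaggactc
Gstt1, chr10:75797682-75797981, - strand: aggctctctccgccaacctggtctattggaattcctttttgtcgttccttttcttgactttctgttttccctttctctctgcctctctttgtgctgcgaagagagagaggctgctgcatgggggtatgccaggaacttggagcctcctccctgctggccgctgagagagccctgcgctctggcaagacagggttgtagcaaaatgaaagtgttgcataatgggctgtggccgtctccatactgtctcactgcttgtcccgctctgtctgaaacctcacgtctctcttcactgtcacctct
The capitals in Gsta3 are TGACATTGC, an antioxidant element core 121 bases before the start, and those in Gsta2 are a xenobiotic element core 7 bases before it. The Gstt1 window holds neither motif. The table listed 13 windows for 9 of the 10 genes (Gsta4 is named only). TGACNNNGC was in 12.4% of all 32851 windows and, among these genes, in Gsta3 alone. GCGTG was in 32.4% of all windows and in those of 3 of these genes: Gsta2, Gstm1 and Gstp1, in the last 13 bases before its start. In Gstm1 the same site was seen in overlapping windows, 76 and 231 bases before their starts of transcription.

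The arrays were close to each other in overall brightness, with median intensities of 48.4 to 49.9. Hepatocyte markers were bright in every group, and the summed intensity of 5 of them lay between 97568 and 102699 on each array. A stand-in for RNA length differed: the log2 difference between the 3' and the 5' probe sets of the Gapdh and Actb controls, which grows as RNA shortens. It averaged 0.93 ± 0.12 in HFCC, 0.93 ± 0.11 in HFDC, 0.82 ± 0.11 in HFGC, 1.22 ± 0.17 in HF and 0.88 ± 0.06 in ND livers (SD, n = 3 each). RNA length itself was not measured, and this measure is called RNA length below. The HF group had the highest mean, though HF replicate 1 (1.08) was close to HFCC replicate 1 (1.07). The counts and calls of comparisons with HF are also given with this measure in the model. Because the measure is highest in the HF group, that model cannot tell it well apart from the diet.

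**Figure D1:**
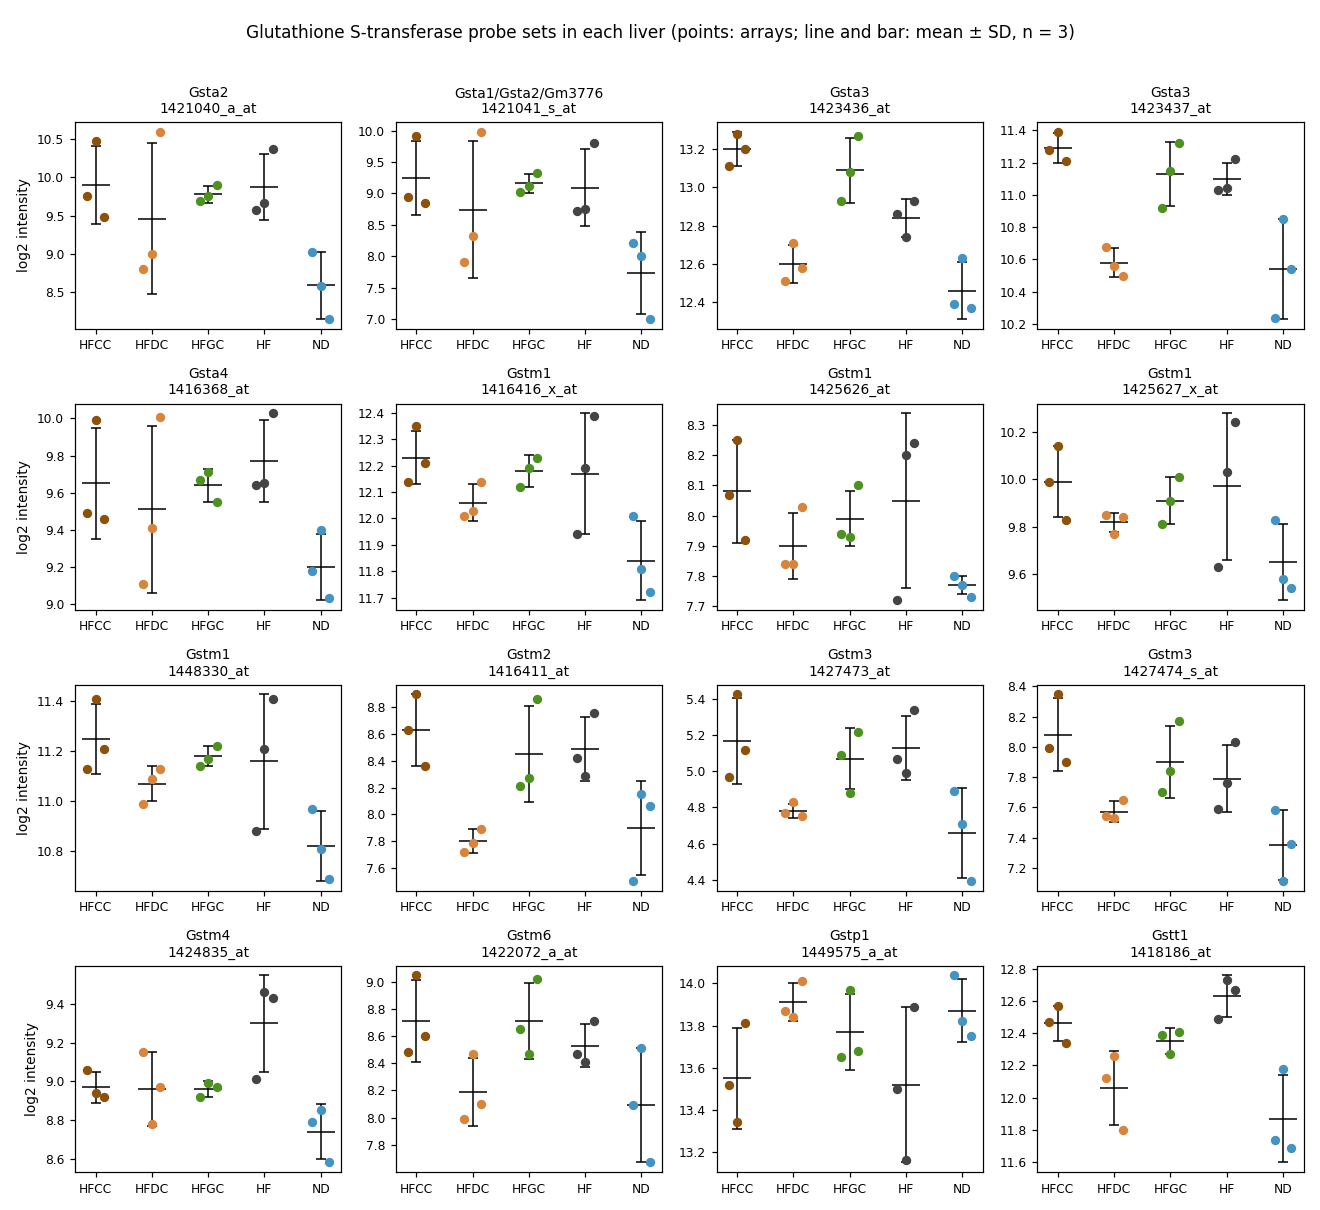
log2 intensity (vertical axes, each panel on its own scale) of the 16 probe sets in the HFCC, HFDC, HFGC, HF and ND groups, with 1 point per array and the mean ± SD of 3 arrays in black. In 15 of the 16 panels the HF mean lies above the ND mean, and in both Gsta3 panels the HFDC points sit below all HFCC and HF points.

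The first comparison asked what the high-fat diet alone did. In the HF group 15 of the 16 probe sets were higher than in the ND group, by a median of 0.45 on the log2 scale, against -0.01 over all probe sets, of which 47.1% were higher. Differences were tested with limma over all probe sets with Benjamini-Hochberg adjustment, and a probe set was called at an adjusted p under 0.05. Of the 16, 6 were called higher and 0 lower, while 5.98% of all probe sets were called higher and 4.32% lower. The 6 belonged to Gstt1, Gstm4, Gsta3 (both probe sets), Gsta2 and Gstm3. All 16 were at an unadjusted p under 0.05, as were 11916 of the 45037. In 10 of the 16 every HF array lay above every ND array, which was so in 13% of all probe sets. In whole liver, fewer cells of a type and less RNA per cell cannot be told apart.

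Gstt1, the theta enzyme that acts on small halogenated compounds, was the member with the lowest p. Its intensities were 5745, 6802 and 6521 in HF livers, against 3412, 4640 and 3301 in ND livers. Every HF liver was above every ND liver. The difference was 0.76 ± 0.13 on the log2 scale (estimate ± SE), or 1.7-fold, with an adjusted p of 0.0041 (limma). The call held in 25 of 26 alternative analyses, and in every fit without 1 array the adjusted p stayed between 0.0014 and 0.024. It was lost with the RNA length measure in the model (0.69, adjusted p = 0.17).

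Gsta2 codes for an alpha enzyme that also reduces lipid hydroperoxides and is known for its strong induction by foreign compounds. It had intensities of 762, 810 and 1320 in HF livers, against 523, 381 and 286 in ND livers, on its own probe set. The shared probe set gave 422, 432 and 891 in HF livers, against 297, 257 and 128 in ND livers. On both probe sets all HF livers were above all ND livers, and HF replicate 3 was well above the other HF livers. The differences were the widest of the members, 1.28 ± 0.38 (2.43-fold, adjusted p = 0.045) on its own probe set and 1.35 ± 0.46 (2.55-fold, adjusted p = 0.074, limma) on the shared one. The Gsta2 call was lost in 8 of the 15 fits without 1 array: without HF replicate 2 or 3, ND replicate 2 or 3, HFCC replicate 1 or any HFGC array, with differences of 1.03 to 1.38 and adjusted p of 0.054 to 0.17. It was also lost with cyclic loess, an offset of 32, a replicate block, and eBayes with trend and robust. The differences there were 1.21 to 1.28, with adjusted p of 0.051 to 0.098 (limma).

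Gsta3, whose mouse enzyme is known for disarming the epoxide of aflatoxin, had 2 probe sets that moved together (r = 0.91 over the 15 arrays). On 1423436_at its intensities were 7450, 6826 and 7794 in HF livers, against 5354, 6352 and 5291 in ND livers. On 1423437_at they were 2097, 2110 and 2381 in HF livers, against 1208, 1849 and 1492 in ND livers. HF and ND livers did not overlap on either. The differences were 0.38 ± 0.10 (adjusted p = 0.027) and 0.55 ± 0.13 (adjusted p = 0.018, limma), and both calls were lost without HF replicate 3 (0.34 and 0.49, adjusted p = 0.10 and 0.072) and without ND replicate 1 (0.34 and 0.40, adjusted p = 0.076 and 0.057). The first was lost as well without ND replicate 3 (0.33, adjusted p = 0.078), and the second without HF replicate 2 (0.58, adjusted p = 0.051).

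Gstm4, of the mu class, had intensities of 516, 704 and 689 in HF livers, against 443, 460 and 383 in ND livers. The HF livers were all above the ND livers, with HF replicate 1 close to them. The difference was 0.56 ± 0.12 (adjusted p = 0.010, limma), and the call was lost without HF replicate 2 (0.48, adjusted p = 0.054) or HF replicate 3 (0.50, adjusted p = 0.050). Of Gstm3, another mu gene, the dim probe set 1427473_at was called higher in HF livers (31.7 to 40.4) than in ND livers (21.0 to 29.6), by 0.47 ± 0.14 (adjusted p = 0.044). This call was lost in 10 of the 15 fits without 1 array, with an adjusted p of up to 0.17: those without HF replicates 1, 2 or 3, ND replicates 2 or 3, any HFDC array, HFCC replicate 3 or HFGC replicate 1. The Gstm3 call was also lost with an offset of 32 (0.22, adjusted p = 0.075) and with a replicate block (0.47, adjusted p = 0.063, limma). Its brighter probe set, 1427474_s_at, was 193 to 261 in HF livers and 138 to 191 in ND livers (0.44 ± 0.15, adjusted p = 0.073).

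The other members did not pass. Gsta4, the alpha enzyme that clears 4-hydroxynonenal, a product of lipid peroxidation, had 796, 806 and 1047 in HF livers and 580, 674 and 523 in ND livers. The groups did not overlap, and the difference was 0.57 ± 0.19 (adjusted p = 0.070, limma). Gstm2 had 342, 313 and 432 in HF livers and 181, 283 and 267 in ND livers, again without overlap (0.59 ± 0.19, adjusted p = 0.066). The 4 probe sets of Gstm1, the main mu enzyme of mouse liver, differed by 0.29 to 0.34 with adjusted p of 0.06 to 0.14. In each of them HF replicate 1 lay among or just below the ND livers. Gstm6 differed by 0.44 ± 0.20 (adjusted p = 0.18), with overlap.

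Gstp1, the pi enzyme, which is abundant in the liver of male mice, was the only member with a lower mean in HF livers. It had 11615, 9123 and 15144 in HF livers, against 16859, 14433 and 13730 in ND livers. HF replicate 3 lay within the ND range. The difference was -0.35 ± 0.16 (95% interval -0.69 to -0.01, adjusted p = 0.17, limma).

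The count of calls depended on the HF arrays. It was 1, Gstt1, without HF replicate 3, 2 without HF replicate 2, 3 without ND replicate 3, and 10 without HF replicate 1, which then included all 4 Gstm1 probe sets. With RNA length in the model the median difference was 0.61, 15 of 16 were still above 0 and 12 had an unadjusted p under 0.05, and 0 were called. In that model Gsta2 was at 1.84 (adjusted p = 0.18), Gsta3 at 0.62 and 0.60 (adjusted p = 0.074 and 0.22), the dim Gstm3 probe set at 0.77 (adjusted p = 0.12) and Gstm4 at 0.32 (adjusted p = 0.39, limma). In the compared groups alone 2 were called. How many of all probe sets were called in these fits is not given here. These counts thus cannot tell a loss of calls in the members from a loss over the whole array. The same holds for the later counts from such fits.

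Marker genes of other liver cells and of liver zones were looked at beside these values. Kupffer cell (6 measured), cholangiocyte (3) and lymphocyte (4) markers had 0 calls, 1 of 5 endothelial markers (Stab2) and 2 of 6 stellate markers (Reln and Col3a1) were called higher in HF livers. Of 9 markers of pericentral hepatocytes 4 were called higher (Slc1a2, Rhbg, Cyp1a2 and Lect2), and of 5 periportal markers 1 was called lower (Hsd17b13). Members of both lists went either way. The pericentral differences ran from -0.16 to 0.82 with a median of 0.06, and the periportal ones from -0.43 to 0.76 with a median of -0.27. The summed intensity of the pericentral markers was 40211 to 42811 in HF livers, against 35370 to 40499 in ND livers. That of the periportal markers was 17399 to 19839 in HF livers, against 21009 to 22439 in ND livers, and that of the stellate markers 2522 to 2913 in HF livers, against 1878 to 2148 in ND livers. The periportal and stellate sums did not overlap between the groups, and no marker was at 0 in any array. Their part in the transferase values was not tested.

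**Figure D2:**
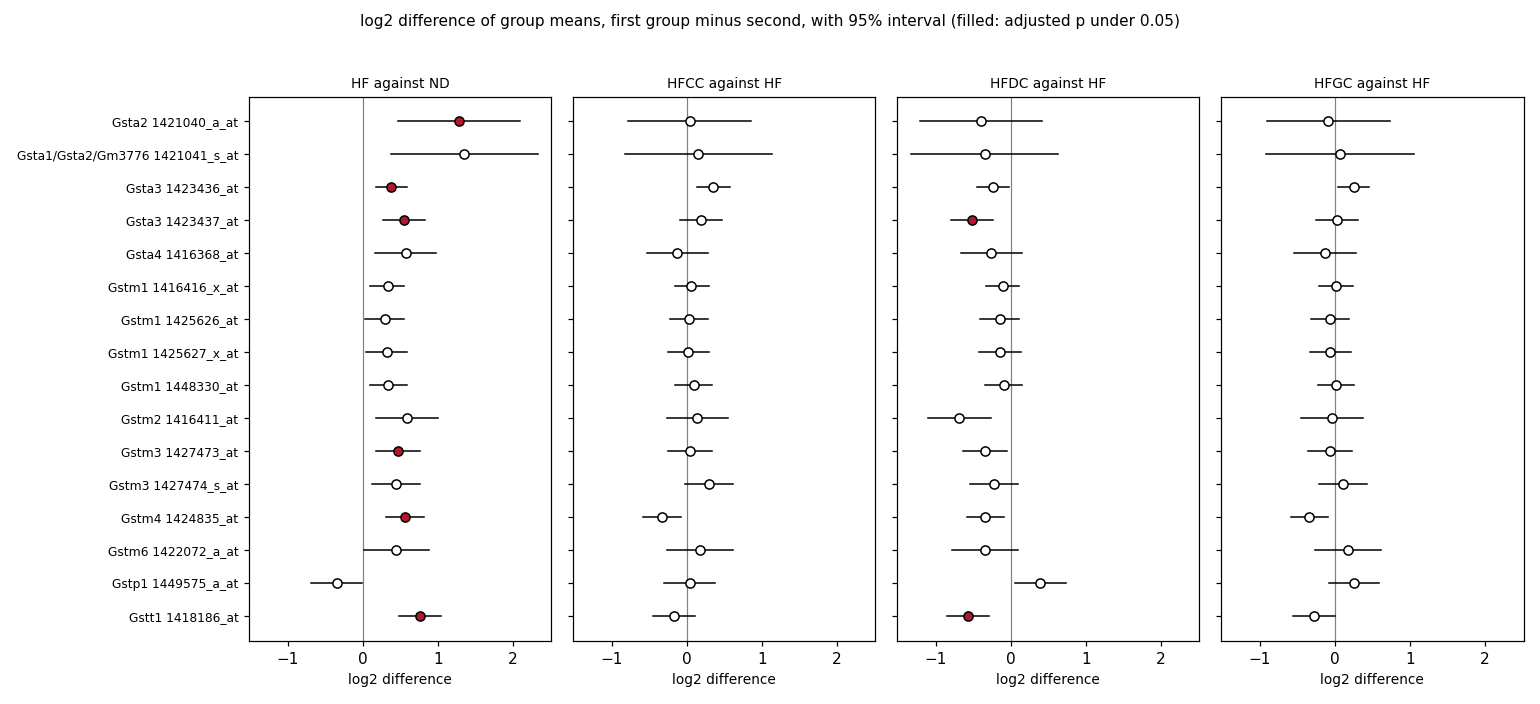
log2 difference between group means (horizontal axes; first group minus second) with its 95% interval for the 16 probe sets, in 4 comparisons; filled points have an adjusted p under 0.05. In HF against ND 6 points are filled, all to the right of 0, in HFDC against HF 2 are filled, both to the left, and in HFCC against HF and HFGC against HF none is filled.

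The next comparisons asked how each coffee changed these genes on top of the high-fat diet. The 3 share the same HF arrays, so their values are given side by side. In the HFDC group 15 of the 16 probe sets were below HF, with a median of -0.30, against 0.01 over all probe sets. Of the 16, 2 were called lower and 0 higher, against 1.91% and 0.81% of all probe sets. In 5 of the 16 every HFDC array lay below every HF array, which was so in 13% of all probe sets. In the HFCC group 13 of 16 were above HF, with a median of 0.05, and in the HFGC group 8 of 16, with a median of -0.01. Neither had a call among the 16 (limma), while 0.5% of all probe sets were called in HFCC and 2.58% in HFGC livers, and 2 members were at an unadjusted p under 0.05 in each, as were 6997 of the 45037 in HFCC and 8398 in HFGC. Neither median kept its sign in all alternatives. With RNA length in the model 7 of 16 were above HF in HFCC livers (median -0.09) and 2 of 16 in HFGC livers (median -0.06). In HFCC the median was -0.05, with 7 of 16 above, without HF replicate 1, -0.02, with 8 above, without HFCC replicate 2, and 0.22, with 14 above, without HF replicate 3. In HFGC it was -0.11, with 5 above, without HF replicate 1, -0.07, with 3 above, without HFGC replicate 3, and 0.11, with 13 above, without HF replicate 3. Every HFCC array lay above every HF array in 1 of the 16, against 7.55% of all probe sets, and every HFGC array lay below every HF array in 2 of the 16, against 12% of all.

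Gstt1 fell in HFDC livers. Its intensities were 4460, 4896 and 3576 in HFDC livers, against 5745, 6802 and 6521 in HF livers, without overlap. The difference was -0.57 ± 0.13 (0.674-fold, adjusted p = 0.038, limma). In HFCC livers Gstt1 was 5689, 6068 and 5198, which differed from HF by -0.17 ± 0.13 (95% interval -0.45 to 0.11, adjusted p = 0.61). In HFGC livers it was 5362, 4932 and 5432, all below the HF livers (-0.28 ± 0.13, adjusted p = 0.28). All 3 coffee means lay between those of ND and HF livers.

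Gsta3 fell in HFDC livers on 1 of its probe sets. On 1423437_at its intensities were 1644, 1508 and 1447 in HFDC livers, against 2097, 2110 and 2381 in HF livers, a difference of -0.52 ± 0.13 (0.698-fold, adjusted p = 0.049, limma). On 1423436_at they were 5852, 6720 and 6107 in HFDC livers, against 7450, 6826 and 7794 in HF livers (-0.24 ± 0.10, adjusted p = 0.19). On both the HFDC livers were all below the HF livers and overlapped the ND livers. In HFCC livers the means were instead above HF: 1423436_at had 8846, 9968 and 9394, all above the HF livers (0.35 ± 0.10, adjusted p = 0.092), and 1423437_at had 2481, 2693 and 2364 (0.19 ± 0.13, adjusted p = 0.54). In HFGC livers 1423436_at had 7793, 8650 and 9911, which overlapped HF (0.25 ± 0.10, adjusted p = 0.18, and -0.03 with RNA length in the model), and 1423437_at differed from HF by 0.03 ± 0.13 (95% interval -0.25 to 0.31, adjusted p = 0.93).

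Both calls depended on single arrays. Both were lost without any 1 of the HFDC arrays, HF replicates 2 or 3, or HFGC replicate 2, with an adjusted p of up to 0.16 for Gstt1 and up to 0.17 for Gsta3, and the Gsta3 call was also lost without any HFCC array, HFGC replicate 1 or ND replicate 3. The median over the members was -0.14 without HF replicate 3, with 4 of 16 above HF, and -0.18 and -0.20 without HFDC replicates 1 and 2. With RNA length in the model it was -0.47, 6 had an unadjusted p under 0.05 and 0 were called. Of the marker lists, only 1 of the 5 endothelial genes was called in HFDC against HF, Stab2, which was lower (-0.39 ± 0.08, adjusted p = 0.033).

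Gstm2 had the widest difference of the members in this comparison. Its intensities were 211, 222 and 237 in HFDC livers, against 342, 313 and 432 in HF livers. The 3 HFDC livers were close together and below all HF livers. The difference was -0.69 ± 0.19 (0.621-fold) and missed the threshold (adjusted p = 0.067, limma). The dim Gstm3 probe set was also without overlap, 26.9 to 28.5 in HFDC livers and 31.7 to 40.4 in HF livers (-0.35 ± 0.14, adjusted p = 0.17). Gstp1 was the only member with a higher mean in HFDC than in HF livers, by 0.39 ± 0.16 (adjusted p = 0.18), with overlap.

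Gstm4 was the member whose mean was lower by about the same amount in all coffee groups. Its intensities were 534, 490 and 484 in HFCC, 567, 438 and 500 in HFDC, and 485, 510 and 501 in HFGC livers, against 516, 704 and 689 in HF livers. HF replicates 2 and 3 were above every coffee liver, while HF replicate 1 lay among them. The difference from HF was -0.33 for HFCC (adjusted p = 0.18), -0.34 for HFDC (adjusted p = 0.12) and -0.34 for HFGC (adjusted p = 0.13), each with an SE of 0.12, and the 3 coffee groups combined were lower by -0.33 ± 0.10 (adjusted p = 0.048, limma). It was the only call of the 16 in that comparison, in which 4.53% of all probe sets were called lower and 2.71% higher. The call was lost in 12 of the 15 fits without 1 array: all but those without HF replicate 1, HFDC replicate 1 and ND replicate 3. The smallest difference, -0.26 with an adjusted p of 0.28, came without HF replicate 2. With RNA length in the model it was -0.11 (adjusted p = 0.85).

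Gsta2, the shared probe set and Gsta4 had a wide spread within groups, with SDs of 0.11 to 0.98 on the log2 scale for Gsta2. Gsta2 had 866, 1419 and 715 in HFCC, 447, 511 and 1543 in HFDC, and 826, 867 and 953 in HFGC livers, against 762, 810 and 1320 in HF livers. HFDC replicate 3 was the highest of all 15 livers, while the other HFDC livers lay within the ND range. The same 3 livers, HFCC replicate 2, HFDC replicate 3 and HF replicate 3, were the highest of their groups on the shared probe set and in Gsta4. Across the 15 arrays Gsta2 correlated with Gsta4 at r = 0.92 and with the shared probe set at r = 0.99. The difference of HFDC from HF was -0.40 ± 0.38 for Gsta2 (95% interval -1.21 to 0.41, adjusted p = 0.62), an interval that holds 0 and a fall of more than 1 on that scale.

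The coffee groups were also set against the ND group, to ask how far these genes lay from the normal diet. The 3 coffee groups combined were higher than ND in 15 of 16 probe sets, with a median of 0.40, against 0 over all probe sets. Of the 16, 4 were called higher and 0 lower, against 1.58% and 1.57% of all probe sets. The calls were Gsta3 on 1423436_at (0.50 ± 0.08, adjusted p = 0.0054) and 1423437_at (0.46 ± 0.11, adjusted p = 0.033), Gstm3 on 1427474_s_at (0.50 ± 0.12, adjusted p = 0.038) and Gstt1 (0.42 ± 0.11, adjusted p = 0.044, all limma). The first held in every fit without 1 array, with an adjusted p of 0.0042 to 0.031. The other Gsta3 call was lost without ND replicate 1 or 3 or replicate 2 of any coffee group (adjusted p of 0.052 to 0.15), and the Gstm3 call without ND replicate 2 or 3, HFCC replicate 2, HFGC replicate 2 or any HFDC array (0.050 to 0.15). The Gstt1 call was lost in 12 of those 15 fits (0.051 to 0.18), all but the ones without HFDC replicate 3, HF replicate 1 or ND replicate 2. In 3 of the 16, all of Gstm1, every coffee array lay above every ND array, which was so in 2.35% of all probe sets. The count of calls was 1, Gsta3, without HFCC replicate 2, HFDC replicate 2, HFGC replicate 2 or ND replicate 3, and 2 without ND replicate 1.

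Some zone markers differed in the same comparison. Of the 9 pericentral markers 4 were called higher in the coffee groups, Slc1a2 (0.49), Rhbg (0.51), Cyp1a2 (0.50) and Lect2 (0.59), and of the 5 periportal markers 1 was, Pck1 (1.39), while the other 6 marker lists had 0 calls (limma). Glul, Cyp2e1, Oat, Axin2 and Lgr5 were not called. The pericentral list ran from -0.14 to 0.59 with a median of 0.22, and the periportal list from -0.37 to 1.39 with a median of -0.07. The summed intensity of the pericentral markers was 41263 to 44380 in HFCC, 39696 to 41806 in HFDC and 41696 to 43118 in HFGC livers, against 35370 to 40499 in ND livers. The HFCC and HFGC sums lay above all ND sums, and the HFDC sums overlapped them. That of the periportal markers, 19388 to 24683 over the coffee livers and 21009 to 22439 in ND livers, overlapped. Their part in the transferase values was not tested.

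The order of the group means was alike in many of the 16 probe sets, several of which read the same gene. HFCC had the highest mean in 11 of the 16 probe sets and HF in 3. The 11 belonged to Gsta2 (with the shared probe set), Gsta3, Gstm1, Gstm2 and Gstm3 only. HFCC was not the highest in Gsta4, Gstm4, Gstm6, Gstp1 or Gstt1. ND was lowest in 14 of the 16, the exceptions being Gstm2, where HFDC was lowest, and Gstp1, where HF was. HFDC stood next above ND in 13, and in 10 of these their livers overlapped. In the 3 where they did not overlap, every HFDC liver was above every ND liver. These 3 are probe sets of the same gene, Gstm1, and so are not separate findings. The difference of HFDC alone from ND was not tested, so overlap here does not show that the groups were alike. How often HFDC and ND livers overlapped over all probe sets was not counted. Nor was it counted how often each group was the highest or lowest over all probe sets.

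The last comparisons set the coffees against each other. The HFDC group, whose coffee holds little caffeine, had lower means than the HFCC group in 15 of 16 probe sets, with a median of -0.40, against 0.01 over all probe sets. None of the 16 passed limma's threshold, and 0.00444% of all probe sets, 2 in number, did. Of the members 8 had an unadjusted p under 0.05, as had 3342 of the 45037. In 8 of the 16 every HFDC array lay below every HFCC array, which was so in 6.82% of all probe sets. The median was -0.16 without HFCC replicate 2, -0.17 without HFDC replicate 1 and -0.25 without HFDC replicate 2, with 14 of 16 lower in each.

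Gsta3 was the member with the lowest p here. On 1423436_at the HFDC livers had 5852, 6720 and 6107 and the HFCC livers 8846, 9968 and 9394, and on 1423437_at the HFDC livers had 1644, 1508 and 1447 and the HFCC livers 2481, 2693 and 2364. On both, the gap between the groups was wider than the range within either. The differences were -0.60 ± 0.10 (0.662-fold, adjusted p = 0.074) and -0.71 ± 0.13 (0.61-fold, adjusted p = 0.098, limma). The first passed in a fit with 1 probe set per gene (adjusted p = 0.042) and in the fit without HFGC replicate 3 (adjusted p = 0.046).

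The mu genes spread widely in this comparison and none passed. The 4 Gstm1 probe sets differed by -0.18 to -0.17 (adjusted p of 0.79 to 0.86, limma) and Gstm4 by -0.01 (95% interval -0.26 to 0.24). The others had larger differences. Gstm2 had 211, 222 and 237 in HFDC livers, against 396, 479 and 329 in HFCC livers, with no overlap (-0.83 ± 0.19, 0.563-fold, adjusted p = 0.19, limma). Gstm3 on 1427474_s_at had 187, 185 and 201 in HFDC livers, against 254, 327 and 239 in HFCC livers (-0.51 ± 0.15, adjusted p = 0.36). Gstm6 had 255, 355 and 274 in HFDC livers, against 356, 531 and 388 in HFCC livers (-0.52 ± 0.20, adjusted p = 0.57). In each of these the highest HFDC liver was below the lowest HFCC liver, in Gstm6 narrowly. Gstt1 was lower by -0.40 ± 0.13 (adjusted p = 0.45), also with no overlap. Gstp1 was the only member higher in HFDC livers: it had 14955, 14708 and 16452 in HFDC livers, against 11709, 10362 and 14338 in HFCC livers (0.35 ± 0.16, adjusted p = 0.66). Its HFDC arrays were all above its HFCC arrays, which was so in 1 of the 16 and in 7.76% of all probe sets.

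The HFGC group stood closer to HFCC than to HFDC in most members. Against HFDC it was higher in 14 of 16, with a median of 0.29, against 0 over all probe sets, and in 7 of the 16 every HFGC array lay above every HFDC array, which was so in 5.78% of all probe sets. None passed limma's threshold, nor did any of the 45037 (0%), and 6 members had an unadjusted p under 0.05. Gsta3 differed by 0.49 ± 0.10 (adjusted p = 0.26) and 0.55 ± 0.13 (adjusted p = 0.32), Gstm2 by 0.65 ± 0.19 (adjusted p = 0.52) and Gstt1 by 0.29 ± 0.13 (adjusted p = 0.84). Against HFCC the HFGC group was lower in 14 of 16, with a median of -0.09, and 0 had an unadjusted p under 0.05, while 0.00222% of all probe sets were called. Without HFCC replicate 2 that median was 0, with 8 of 16 higher. Against HFDC the median was 0.10 without HFDC replicate 1 and 0.16 without HFDC replicate 2. For Gsta3 on 1423436_at the difference of HFGC from HFCC was -0.10 ± 0.10 (95% interval -0.32 to 0.11), and for Gstm2 -0.18 ± 0.19 (95% interval -0.60 to 0.23).

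After these values were seen, the caffeine-holding groups HFCC and HFGC were combined and set against HFDC. Because the comparison was chosen with these values known, its p-values and shares only describe them and do not test the choice. Of the 16 members 15 were higher, with a median of 0.34, and 1 was called higher, against 0.04% of all probe sets. In 6 of the 16 every HFCC and HFGC array lay above every HFDC array, which was so in 2.36% of all probe sets. The median was 0.13 without HFDC replicate 1 and 0.20 without HFDC replicate 2, with 14 of 16 higher in each. The call was Gsta3 on 1423436_at, at 0.54 ± 0.09 (1.46-fold, adjusted p = 0.034, limma), with the other Gsta3 probe set at 0.63 ± 0.11 (adjusted p = 0.058). In both all 6 HFCC and HFGC livers were above all 3 HFDC livers. The call was lost in 7 of the 15 fits without 1 array: those without any 1 of the HFCC or HFDC arrays or HFGC replicate 2, with adjusted p of 0.061 to 0.16. Gstm2 differed by 0.74 ± 0.17 (1.67-fold, adjusted p = 0.14), again with every liver of HFCC and HFGC above every HFDC liver. The HF group, which had no coffee, was not low in these genes. Its mean log2 intensity for Gstm2 was 8.49, against 8.63 in HFCC, 8.45 in HFGC and 7.80 in HFDC livers. For Gsta3 on 1423436_at it was 12.84, between HFGC (13.09) and HFDC (12.60). The part of caffeine was not tested.

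**Figure D3:**
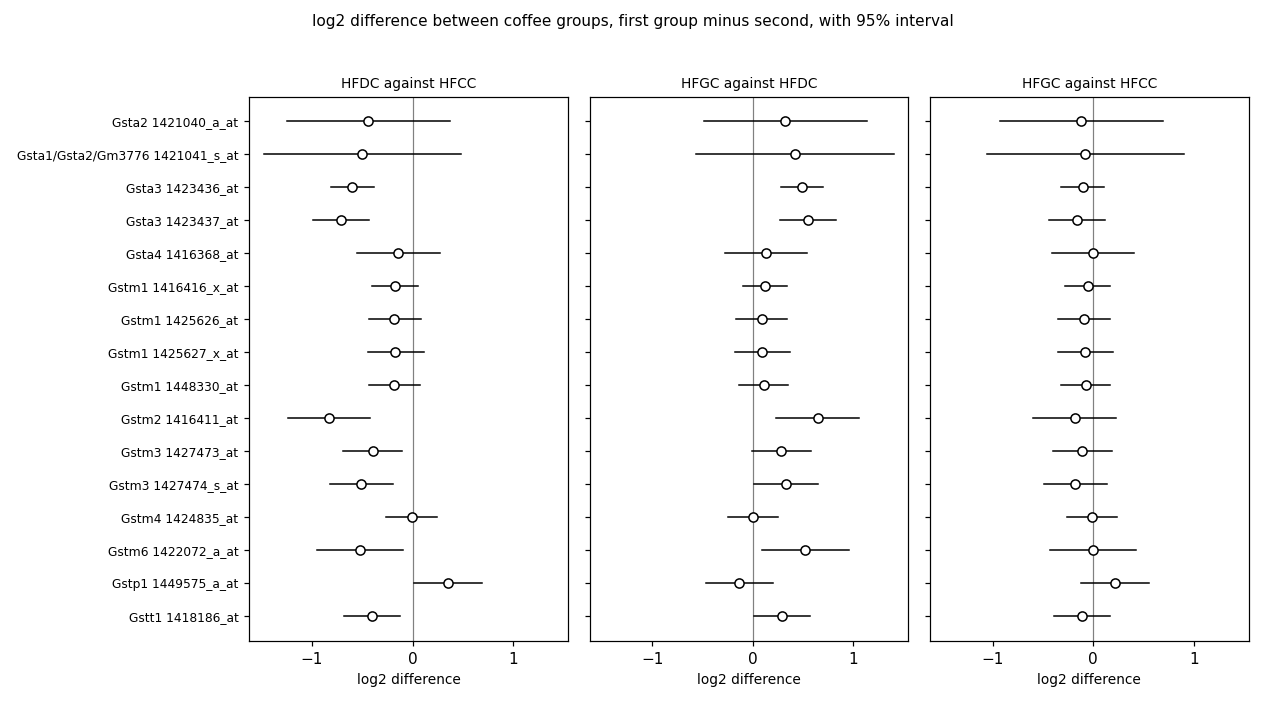
log2 difference between coffee groups (horizontal axes; first group minus second) with its 95% interval for the 16 probe sets. HFDC minus HFCC lies left of 0 in 15 of 16 rows and HFGC minus HFDC right of 0 in 14 of 16, while in HFGC against HFCC every interval crosses 0.

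How the members moved with each other was described over the 15 arrays, which share 5 diets. The 4 Gstm1 probe sets correlated at r = 0.88 to 0.99 and the 2 Gstm3 probe sets at 0.83. Gsta2, the shared probe set and Gsta4 correlated with each other at r = 0.92 to 0.99. Gstm2 correlated at 0.84 and 0.93 with the 2 Gsta3 probe sets. Among other genes, the closest to Gsta3 on 1423436_at were Nudt2 (r = 0.94), Pstpip2 (0.94) and Akr1d1 (0.92), and the closest to Gstm2 were Gstt3 (0.93) and Aldh1l1 (0.92). The closest to Gstm3 was Nqo1 (0.89), the quinone reductase that serves as a marker of NRF2 activity. Gstt1 was closest to Ebpl and Echdc3 (0.97 each), Gstm4 to Hexa and Entpd5 (0.94 each), Gstm6 to Asgr1 (0.94), Gstm1 to Akr1a1 (0.88) and Gstp1 to Usp3 (0.85).

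The genes around these enzymes were counted in 6 lists, with the brightest probe set of each gene. In HF against ND, of 19 other glutathione transferases 1 was called higher, Mgst3, the microsomal transferase that also reduces lipid peroxides (1.01 ± 0.16, adjusted p = 0.0029, limma). The median of that list was 0.01, against -0.01 over all probe sets. Of 7 exporters of glutathione conjugates 3 were called higher and 0 lower: Abcc3 (1.40 ± 0.17, adjusted p = 0.00059), Abcc2 (0.52 ± 0.12, adjusted p = 0.013) and Abcc6 (0.42 ± 0.09, adjusted p = 0.012). Abcc3 sends conjugates to the blood and Abcc2 to the bile, and the list had a median of 0.32. Of 15 genes of glutathione reduction and the peroxidases, 2 were called higher, Gpx7 (0.79) and Gpx4 (0.34), and 1 lower, Glrx (-0.61), with a median of 0.09.

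Of 19 genes that make, recycle or break down glutathione, 2 were called higher in HF livers and 3 lower, with a median of -0.09. The higher were Gss, the second enzyme of synthesis (0.41 ± 0.09, adjusted p = 0.011), and Ggct, of breakdown (0.72 ± 0.10, adjusted p = 0.0015). The lower were Cth, which makes cysteine (-0.55 ± 0.17, adjusted p = 0.049), Lap3 (-0.37, adjusted p = 0.036) and Slc7a11, the cystine carrier (-0.32, adjusted p = 0.037). Of 16 genes of NRF2 and its other targets, 3 were called higher, Aox1 (0.62), Taldo1 (0.45) and Keap1 (0.30), which holds NRF2 back, with a median of 0.13. The difference was 0.42 for Nqo1 (adjusted p = 0.098) and -0.30 for Nfe2l2, the gene of NRF2 itself (adjusted p = 0.31). Of 15 genes of CAR, PXR, AhR and drug oxidation, 4 were called higher: Nr1i3, the gene of CAR (0.57), Nr1i2, the gene of PXR (0.39), Cyp1a2 (0.58) and Cyp2b9 (4.68). Arnt, the partner of AhR (-0.34), and Cyp3a13 (-0.43) were called lower, and the median was 0.21.

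Against HF, 0 genes of any of the 6 lists were called in HFCC livers by limma, and 1 to 6 genes of each list had an unadjusted p under 0.05. In HFDC livers 3 genes in the list of other transferases were called lower: Gstt3 (-1.33 ± 0.32, adjusted p = 0.041), Mgst3 (-0.86 ± 0.16, adjusted p = 0.027) and Ptges2 (-0.43 ± 0.09, adjusted p = 0.033, limma). Ptges2 is a prostaglandin E synthase that was counted in that list. Gstt3, of the theta class like Gstt1, had 226 to 336 in HFDC livers, against 584 to 762 in HF livers. Ggct (-0.56), Taldo1 (-0.39) and Nr1i3 (-0.70) were also called lower in HFDC livers, and Arnt was called higher (0.27). In HFGC livers the calls were Ptges2 (-0.36), Ggct (-0.43) and Oplah (-0.39), lower, and Arnt (0.27), higher.

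**Figure D4:**
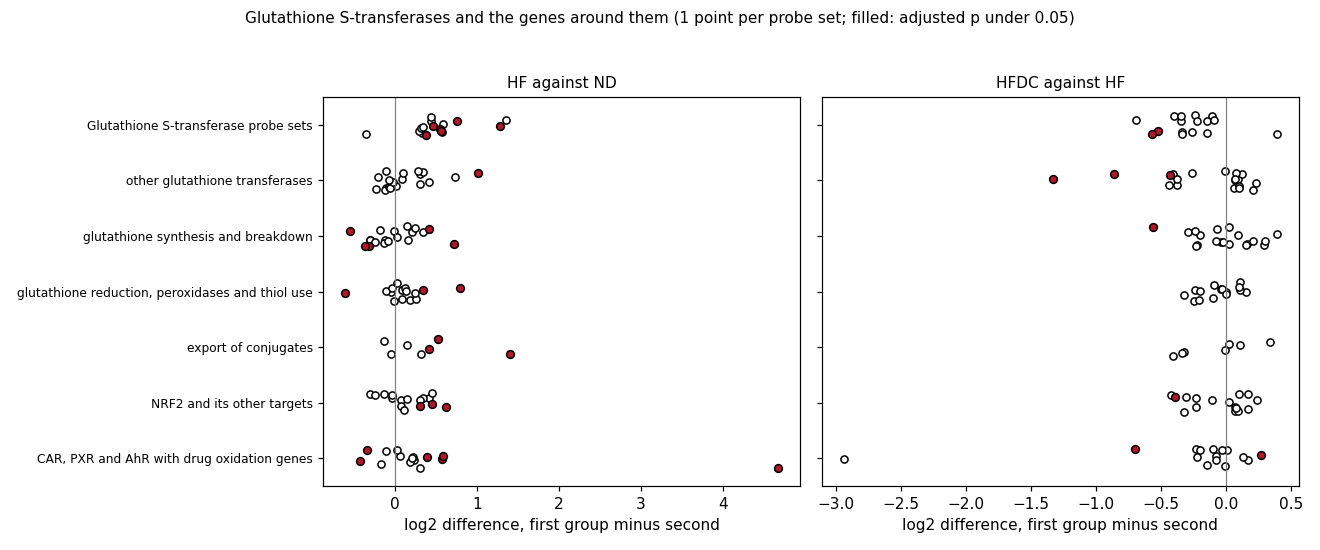
log2 difference (horizontal axes; HF minus ND at left, HFDC minus HF at right) of the transferase probe sets in the top row and of the genes of 6 related lists below, 1 point per probe set; filled points have an adjusted p under 0.05. At left 15 of 16 transferase points lie right of 0, and the point far to the right is Cyp2b9 at 4.68.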

How the data were processed

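Liver RNA of 15 mice was measured on Affymetrix mouse genome arrays, 3 per group. The authors deposited intensities on a linear scale, which per the labels come from RMA (background correction, normalization between arrays and summary per probe set); the version is not given in the sources used here. Log2 was taken of the deposited intensities, with no offset, filter or further normalization. All 45037 probe sets other than the 64 controls entered 1 limma model (version 3.58.1, R 4.3.3) with 5 group means and 10 residual degrees of freedom. P-values were adjusted by Benjamini-Hochberg over all of them, and calls were made at 0.05. The script was tested on simulated data. The number of arrays is small, which limits the precision. The median SE of the HF against ND difference over all probe sets was 0.0947. The SEs of the members in that comparison were larger, 0.10 to 0.46.

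Probe sets were named through the platform's annotation, and all 18 member names were unchanged by gene ID. All member genes are named. Of the other lists, genes were named by the size of their differences, and of likeness, the genes with the highest correlation. The members and lists were chosen with earlier results of these data known. Each array is from a separate mouse. The labels give the same replicate numbers in every group but do not say that these pair the mice. Alternatives were 1 probe set per gene, probe sets with 1 symbol, a filter on dim probe sets, cyclic loess, an offset of 32, the compared groups alone, a replicate block, eBayes with trend and robust, thresholds of 0.10 and of 1.5-fold, RNA length as a covariate, and leaving out each array.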

Additional observations from a re-analysis of the deposited data

Results flagged for a closer look

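Gsta3 on 1423436_at was marked for a closer look because the livers of 2 coffee groups lay on opposite sides of the HF livers. All 3 HFDC livers were below every HF liver and all 3 HFCC livers were above every HF liver. The gap to HFDC was narrow, 6720 against 6826. Neither difference from HF was called (adjusted p = 0.19 for HFDC and 0.092 for HFCC, limma). On the other Gsta3 probe set, 1423437_at, the lowest HFCC liver (2364) lay below the highest HF liver (2381). How often 2 coffee groups lay so over all probe sets was not counted. The difference of HFDC from HFCC was -0.60 on the log2 scale, with an adjusted p of 0.074 in limma, and ranged from -0.65 to -0.55 over 26 alternatives. Groups of 3 arrays were not searched for outlying samples.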

How the results depend on the processing

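The counts of member probe sets called (6 in HF against ND, 2 in HFDC against HF, 1 in the coffee groups together against HF, 4 in those groups against ND, 0 in the other planned comparisons) changed as follows. At an adjusted p under 0.10 they were 12 in HF against ND, 1 in HFCC against HF, 2 in the coffee groups against HF, 8 in the coffee groups against ND and 2 in HFDC against HFCC. With a minimum of 1.5-fold they were 2 in HF against ND and 0 in HFDC against HF, the coffee groups against HF and the coffee groups against ND. In the compared groups alone they were 2 in HF against ND, 0 in HFDC against HF and 2 in the coffee groups against HF. With RNA length as a covariate they were 0 in HF against ND, HFDC against HF and the coffee groups against HF. Cyclic loess gave 5 in HF against ND, 0 in HFDC against HF, 0 in the coffee groups against HF and 6 in those groups against ND. An offset of 32 gave 4 in HF against ND, 1 in HFDC against HF, 0 in the coffee groups against HF and 2 in those groups against ND. Elsewhere, counts that changed by no more than 1.5-fold are left out. With 1 probe set per gene 1 was called in HFDC against HF and 1 in HFDC against HFCC, and the filter on dim probe sets gave 2 in the coffee groups against HF. In HFCC and HFGC together against HFDC, added after the values were seen, the count of 1 became 2 with probe sets of 1 symbol and at 0.10, and 0 with the offset, in the compared groups alone and with the 1.5-fold minimum.

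Without 1 array the count ranged from 1 to 10 in HF against ND, 0 to 1 in HFCC against HF, 0 to 3 in HFDC against HF, 0 to 1 in HFGC against HF, 0 to 1 in the coffee groups against HF, 1 to 6 in the coffee groups against ND, 0 to 1 in HFDC against HFCC, 0 to 0 in HFGC against HFCC and in HFGC against HFDC, and 0 to 2 in the added comparison. Of the single differences followed through the alternatives, 1 changed sign: Gsta3 on 1423436_at in HFGC against HF, 0.25, was -0.03 (adjusted p = 0.97) with the RNA length covariate. The cause was not tested. Printed differences close to 0 were not all followed. Some of them turn without 1 array, such as Gstm4 in HFDC against HFCC without HFDC replicate 2.

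The labels do not say that the replicate numbers pair the mice, and the main model did not pair them. Same-numbered arrays of different groups had correlations of -0.277 to 0.218 in their deviations from the group means, of which 6 of 30 were over 0.1. Their mean was 0.0204. Arrays with other numbers had a mean of -0.01, with 8 of 60 over 0.1. These correlations do not settle whether mice of the same number were handled together. With the number as a replicate block, the counts were 4 in HF against ND, 1 in HFDC against HF, 0 in the coffee groups against HF, 4 in the coffee groups against ND, 0 in HFDC against HFCC and 1 in the added comparison. With 3 arrays a group, differences much under the SEs given here cannot be seen. Differences well above their SE can also miss the threshold, as Gsta4 did in HF against ND (0.57 ± 0.19, adjusted p = 0.07, limma).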

Other observations

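Among the 19 genes that make, recycle or break down glutathione, the 3 coffee groups combined differed from HF in Lap3, an aminopeptidase (0.35 ± 0.08, adjusted p = 0.025), Chac2, which breaks glutathione down (0.41 ± 0.12, adjusted p = 0.046), and Cth, which makes cysteine (0.48 ± 0.14, adjusted p = 0.047), all higher in the coffee groups by limma. Lower in the coffee groups were Ggct (-0.38 ± 0.08, adjusted p = 0.017), Oplah (-0.32 ± 0.08, adjusted p = 0.027), Gss (-0.26 ± 0.07, adjusted p = 0.039) and the aminopeptidase Anpep (-0.28 ± 0.08, adjusted p = 0.038). The exporter Abcc6 (-0.31 ± 0.07, adjusted p = 0.025) was lower as well. So were 2 of the 19 genes in the list of other transferases and 1 of the 15 genes of reduction and the peroxidases, not named here. Over all probe sets 4.53% were called lower and 2.71% higher in this comparison. Cth had intensities of 6018 to 6858 in HFCC, 4205 to 5645 in HFDC and 5082 to 8646 in HFGC livers, against 3622 to 5066 in HF and 5662 to 7139 in ND livers. The HFCC and HFGC livers were above all HF livers and the HFDC livers overlapped them.

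Gstt3 spread widely within groups. It had 552 to 915 in HFCC, 226 to 336 in HFDC and 435 to 1087 in HFGC livers, against 584 to 762 in HF and 248 to 541 in ND livers. Cyp2b9, a cytochrome that CAR and a high-fat diet are known to raise, had 131 to 2057 in HFCC, 39.8 to 262 in HFDC and 148 to 558 in HFGC livers, against 459 to 1146 in HF and 28.2 to 32.8 in ND livers. Its HFCC livers spread the most, and all were above the ND livers.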
